A study of Mus musculus with 2 samples.

Results

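Annotated spliced transcripts of 5000 bases or more are the long end of the annotation that reads of a long-read muscle library were assigned to. They were taken from the transcript tables of mouse gastrocnemius, a calf muscle, as models of the annotated class with at least 2 exons and an annotated length of at least 5000 bases, without spike-in genes. The rule left 1480 transcripts of 1358 genes, out of 16523 annotated spliced transcripts with a read in either library. Replicate 1 held 1356 of them and replicate 2 held 911, 787 of them shared, so that 569 were seen by replicate 1 only and 124 by replicate 2 only. Of all 16523 annotated spliced transcripts, replicate 1 held 14139 and replicate 2 held 12845. The long ones were 9.59% of these in replicate 1 and 7.09% in replicate 2. The libraries form 1 group of 2 biological replicates, male B6CASTF1/J mice (a first-generation cross of the C57BL/6J and CAST/EiJ strains) aged 36 days, with 2 µg of RNA each and no treatment named. The labels number the animals separately but give both the same donor entry, so all p-values compare these libraries and not conditions. Positions are on mm10, and structures are those of the GENCODE M21 annotation.

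In long-read RNA sequencing an mRNA is copied into cDNA, usually from its poly(A) tail, and each read stands for a single molecule, so counts are not divided by length. A transcript model is called annotated when the read carries the whole chain of splice junctions of an annotated transcript, from the first exon to the last. A read whose copy stopped short of the 5′ end lacks the early junctions and becomes an incomplete match. Where the junctions left form the whole chain of another annotated transcript, the read is called as that transcript instead. Skeletal muscle is known for very long mRNAs, such as those of the myosin heavy chains, the collagens of its connective tissue, the calcium channel of the T-tubule and the giant proteins titin and nebulin. Many other mammalian mRNAs are long for another reason, a last exon with a long 3′ untranslated region, and they often carry more than 1 poly(A) site.

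The length in the tables is that of the annotation, not that of the molecule. It equalled the GENCODE length for every one of the 1480 transcripts in both tables, and read ends of annotated calls were not analysed here. What such a call does show is the stretch between the first and the last junction, the summed internal exons. The label "full-length" is therefore used here for the junction chain alone.

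The windows below show the junctions on which some of these calls rest, as 30 bases of the GENCODE M21 transcript, 15 on either side, with the downstream exon in capitals. The first pair bounds the chain of Myh4-202 (junctions at chr11:67240827-67240920 and chr11:67259385-67260188, plus strand), which is 5463 bases long.
Myh4-202 first junction: accgaaggcggagctACGGTCACCGTCAAG
Myh4-202 last junction: caggctgaggaggctGAGGAACAATCCAAT
The next window is the junction that Myh4-201 has and Myh4-202 lacks (chr11:67238079-67240585), a 5′ noncoding exon joined to the start of the shared chain. All 37 junctions of Myh4-202 lie in the 38 of Myh4-201. A copy of Myh4-201 that stopped before its first junction would therefore be called Myh4-202.
Myh4-201 first junction: ctggtaacacaagagGTGCACCTGGCCCTG
Myh1-203 and Myh1-201 share 38 of 39 junctions and differ at junction 2, where the acceptor of Myh1-201 (chr11:67200442-67201846) lies 4 bases downstream of that of Myh1-203 (chr11:67200442-67201842).
Myh1-203 junction 2: gttgcatccctaaagGCAGGCTCTCTCACT
Myh1-201 junction 2: gttgcatccctaaagGCTCTCTCACTGGGC
The last pair bounds the chain of Sod2-201 (chr17:13008068-13008184 and chr17:13013612-13015026, plus strand). Only 500 bases of internal exons separate these junctions, although the annotated transcript is 5861 bases long.
Sod2-201 first junction: tcgggcggcgtgcagCACGGGCAGGAGGCT
Sod2-201 last junction: tgcaaggaacaacagGCCTTATTCCGCTGC

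A further set of windows lies at or just before the places where models end inside long last exons, a result described with the last exons. Each line holds 30 bases of the transcript around the hexamer nearest to the end, so the end itself can lie a few bases past the window, and capitals mark a poly(A) hexamer, AATAAA or ATTAAA. Sod2 models ended 591 bases into a last exon of 5109 bases, with ATTAAA starting 33 bases before that end (window at chr17:13015580-13015609, plus strand), and the annotated end has AATAAA starting 21 bases before it (chr17:13020105-13020134).
Sod2-201 near model end: ttctATTAAAaattgctattttttgtaagt
Sod2-201 annotated end: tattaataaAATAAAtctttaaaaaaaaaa
Slc25a12 models ended 1087 bases into a last exon of 4291 bases (window at chr2:71274266-71274295, minus strand), against the annotated end (chr2:71271063-71271092).
Slc25a12-206 near model end: caaaAATAAAagcacaccaaaatgtctgca
Slc25a12-206 annotated end: atgtcttAATAAAagtttgtgctcaccaaa
Eif4g2 models ended 2200 bases into a last exon of 5008 bases in replicate 1 and 2190 in replicate 2 (chr7:111070566-111070595, minus strand).
Eif4g2-213 near model end: ctatATTAAAtaattactatataactttac
Usp13-201 shows the other kind of end, where the transcript itself runs on into A. Its model end is also the annotated end of another transcript of the gene, as is that of Sod2-201. The capitals here are the 20 bases after the model end (window at chr3:32933277-32933306, plus strand), of which 16 are A.
Usp13-201 around model end: ttgccaaaaaAGAAAAAGAAGAAAAAAAGA

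The 1480 transcripts were of 2 main builds. In 933 (63.0%) the last exon made up at least 50% of the length, in 436 (29.5%) the internal exons did, and 111 fell in neither. The internal exons summed to a median of 1965 bases, with quartiles of 919 and 3425 and a range of 0 to 10635 bases, whereas the annotated length had a median of 6159 bases and reached 123179. The 436 built of internal exons had a median of 28 exons and 4610 coding bases, with 95.7% of the coding sequence inside the internal exons at the median. The 933 with a dominant last exon had a median of 10 exons, 1680 coding bases and 4271 bases of 3′ untranslated region. Only 145 transcripts, of 122 genes, required a read across 5000 or more bases of internal exons, and 51 transcripts had 2 exons, so that their call rests on a single junction. Of the 1480, 1451 were protein coding, 10 retained introns, 7 were targets of nonsense-mediated decay and 12 were of other types, led by the lincRNA 1700020I14Rik-202 with 36 reads in replicate 1 and 46 in replicate 2.

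**Figure D1:**
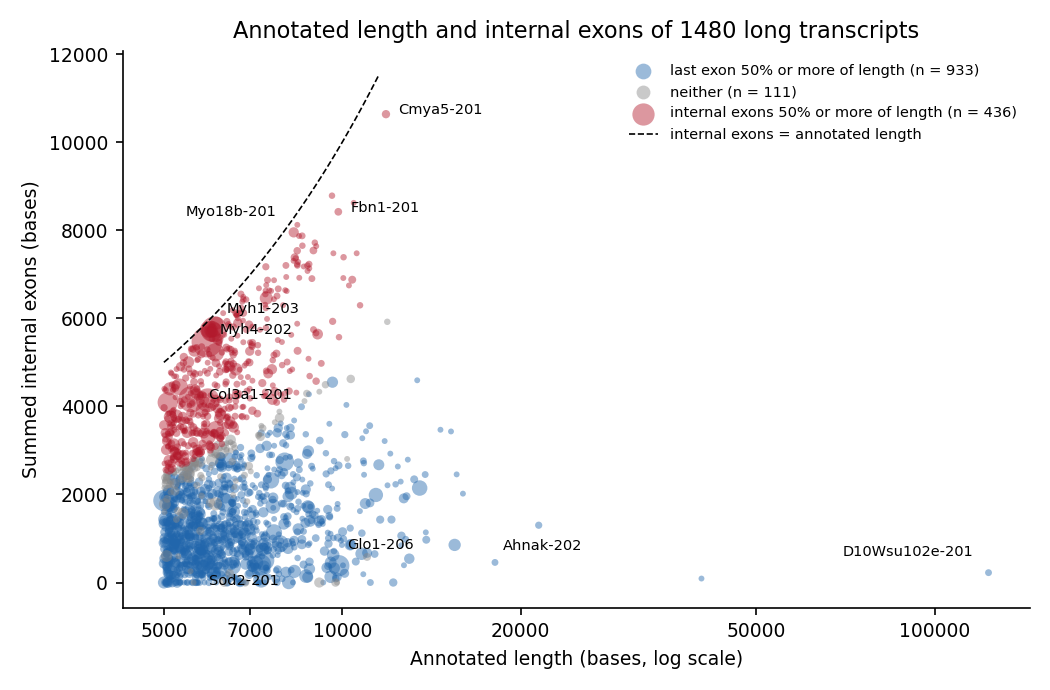
Each point is 1 of the 1480 transcripts, with the annotated length in bases on a log scale across and the summed internal exons in bases up; point area grows with reads and colour gives the longest part. The 436 transcripts built of internal exons lie nearest under the dashed line of equality, and the 933 with a dominant last exon lie low at every length, out to D10Wsu102e-201 with 224 internal bases in 123179.

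Replicate 1 held 1106945 reads, of which 1036455 were in annotated genes, and replicate 2 held 1514119, of which 1374068 were, and these gene totals are the base of CPM, counts per 1000000 gene reads. The long transcripts took 22274 reads in replicate 1, or 2.15% of gene reads (Wilson 95% interval 2.12 to 2.18), and 10686 in replicate 2, or 0.778% (0.763 to 0.793), a mean of 1.46% ± 0.970 (SD, n = 2). Intervals and floors cover counting error only, and the floor that 3 counts set for a transcript at 0 was 2.89 CPM for replicate 1 and 2.18 for replicate 2. Most of the transcripts were rare: 418 had 1 read over both libraries, and 395 had 10 or more. The 10 highest by mean CPM held 35.2% of the long reads in replicate 1 and 23.9% in replicate 2. All 6 skeletal muscle markers (Ckm, Acta1, Atp2a1, Myh4, Tnnc2, Mylpf) had at least 14068 CPM in both libraries. They did not move together, with Atp2a1 at 100412 CPM in replicate 1 and 26014 in replicate 2 and Tnnc2 at 34637 and 52524. The 4 adipocyte markers had sums of 140 and 379 CPM, the 3 blood markers 219 and 290, the 4 of smooth muscle and pericytes 95.5 and 48.0 and the 4 of endothelium 25.1 and 18.2. Within these sums, the adipocyte marker Plin1 went the other way with 2.89 and 0.728 CPM. So did the pericyte marker Pdgfrb with 5.79 and 8.73 and, by little, the endothelial marker Cdh5 with 5.79 and 5.82. Of 3 immune markers Ptprc was at 0 in both libraries, Csf1r had 11 and 5 reads and Cd68 had 6 and 3. The part of these cell types in the results was not tested. In a bulk tissue, fewer cells of a type and less RNA per cell cannot be told apart.

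Set side by side, the libraries differed in this class more than in annotated transcripts as a whole. Of 395 long transcripts with at least 10 reads in sum, 194 were at least 2-fold higher in replicate 1 at an adjusted p under 0.05 (two-sided exact conditional binomial test given the library totals, Benjamini-Hochberg adjustment over all 6722 annotated transcripts tested). That is 49.1%, against a background of 21.4% of all annotated transcripts called higher in replicate 1. A single long transcript, Dnajc15-202, was higher in replicate 2, against a background of 3.84%. The median log2 ratio of replicate 1 over replicate 2 was 1.47 for the 395 and 0.50 for all 6722, a gap of 0.98. With totals from edgeR's TMM or DESeq2's size factors, all log2 ratios shift by -0.46 and -0.50, so the gap stays as it was, but 114 and 107 long transcripts were then called higher in replicate 1, and 10 and 11 higher in replicate 2. With those totals the shares of all annotated transcripts called higher in replicate 1 were 10.03% and 9.40%, and those called higher in replicate 2 were 11.6% and 12.7%.

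The ratio rose with the internal exons and not with the annotated length. Long transcripts with under 500 bases of internal exons had a median log2 ratio of 0.41 (68 tested, 11 called higher in replicate 1). Single short chains could depart far from that median. Igfbp5-201, with 350 internal bases, had 63 reads in replicate 1 and 6 in replicate 2. Irf2bp2-201, with 0 internal bases, had 32 and 4, and both were among the 11 called. For the next bins the medians were higher. The median was 0.85 from 500 to under 1000 bases, 1.31 from there to 2000, 1.72 to 3000 and 2.03 to 4000. At 4000 bases or more it was 2.56, with 35 of 39 called higher in replicate 1 and 0 in replicate 2. Annotated spliced transcripts under 5000 bases also stepped up, with medians of -0.14, 0.41, 1.01, 1.60 and 1.99 in the same bins below 4000 bases. By annotated length the median did not rise in steps. It was 1.38 from 5000 to under 5500 bases, 1.36 from there to 6000, 1.69 to 7000, 1.31 to 8000 and 1.14 to 10000. For the 15 tested transcripts of 10000 bases or more it was 0.74, with a median internal sum of 1153 bases, so it fell from 6000 bases on. These medians describe the transcripts and were not tested against each other. A read of a long transcript spanned on average 2898 internal bases in replicate 1 and 1692 in replicate 2, although the mean annotated length per read was 6343 and 6604 bases.

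**Figure D2:**
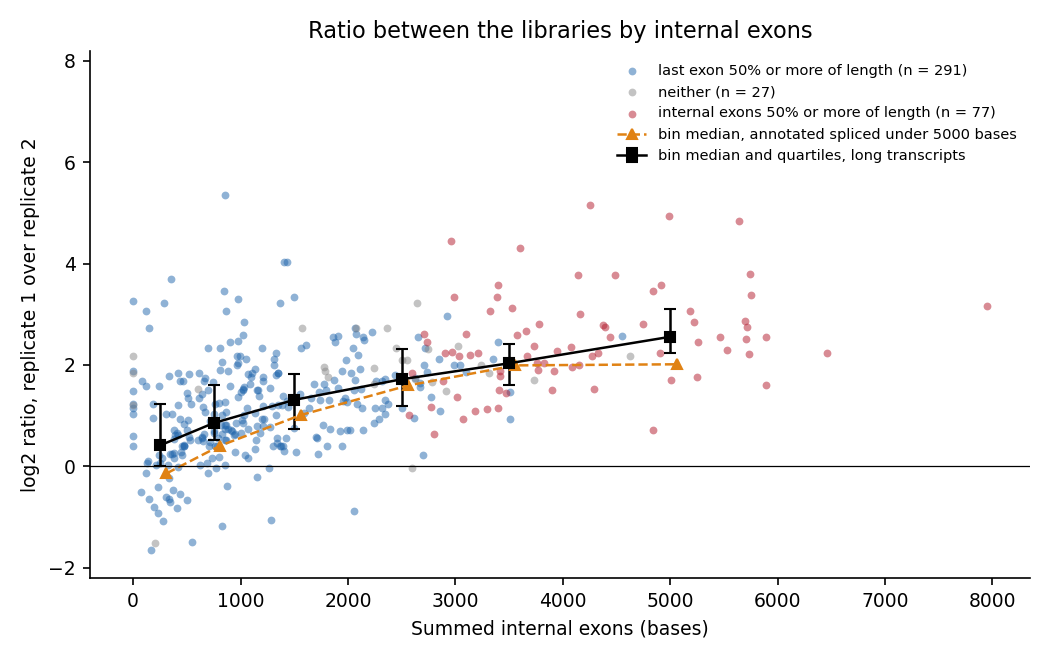
The log2 ratio of replicate 1 over replicate 2 (up) is drawn against the summed internal exons in bases (across) for the 395 tested long transcripts, coloured by longest part. Black squares with bars are bin medians with quartiles, rising from 0.41 to 2.56, and orange triangles are the bin medians of shorter annotated spliced transcripts; the last bin, 4000 bases or more, is drawn at 5000.

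The motor genes gave the most long molecules of the 11 gene lists. The list of myosins and other motors had 15 transcripts of 10 genes with 4627 reads in replicate 1 and 907 in replicate 2, which is 20.8% and 8.49% of the long reads. All 9 tested were called higher in replicate 1, also with TMM or DESeq2 totals. For this list and those below, the background called higher in replicate 1 was 21.4% of all annotated transcripts, or 10.03% and 9.40% with those totals. Myh4-202 (chr11:67240597-67260405, 38 exons, 5912 bases), of the type 2B fast myosin heavy chain gene, had 2383 reads in replicate 1 and 537 in replicate 2, or 2299 and 391 CPM. It was 5.88 times as high in CPM in replicate 1 (exact 95% interval 5.36 to 6.47). Myh1-203, of the type 2X gene, had 1230 reads in replicate 1 and 156 in replicate 2, a ratio of 10.5 (8.84 to 12.4; adjusted p = 1.52e-276 by the exact binomial test). Myh4-201, with the extra 5′ exon shown above, had 474 and 110 reads, a ratio of 5.71 (4.63 to 7.10) that overlaps that of Myh4-202. On the other acceptor of junction 2, Myh1-201 had 205 and 19 reads. Myh2-203, of the type 2A gene, had 103 and 29 reads, and Myh7-201, of the slow gene, had 56 and 24. These genes have close paralogues, and the assignment of reads between them was not tested. The list held 4624 of the 5382 reads (85.9%) of replicate 1, and 905 of 1061 (85.3%) of replicate 2, that crossed 5000 or more bases of internal exons. Myo18b-201 (chr5:112688876-112896362), of an unconventional myosin that sarcomere assembly needs, reached farther, across 7951 bases, in 23 reads of replicate 1 and 3 of replicate 2.

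The other sarcomere genes had fewer long reads, and titin and nebulin had none. Their 30 transcripts of 24 genes had 854 reads in replicate 1 and 241 in replicate 2. Of 9 tested, 8 were called higher in replicate 1 (7 with TMM totals and 6 with DESeq2 size factors). Myom2-201, of a protein that ties thick filaments together at the M-band, had 385 and 130 reads, a ratio of 3.93 (3.21 to 4.83; adjusted p = 2.24e-46 by the exact binomial test). Myom1-203, of its M-band relative, had 183 and 41 reads. Mypn-201, of a protein of the Z-disc and I-band, had 71 and 13, and Xirp1-201, of an actin-binding repeat protein, had 31 and 3. Nrap-202, of an actin-binding protein found at the myotendinous junction, crossed 5007 internal bases in 30 and 12 reads. Synpo2-201, of a Z-disc protein, is of another kind: it has 2 exons and 8121 bases, and its 60 and 28 reads are called by a single junction. Of the 39 genes of this list with an annotated spliced transcript of 5000 bases or more and at least 20 reads in sum, 21 had a long read.

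**Figure D3:**
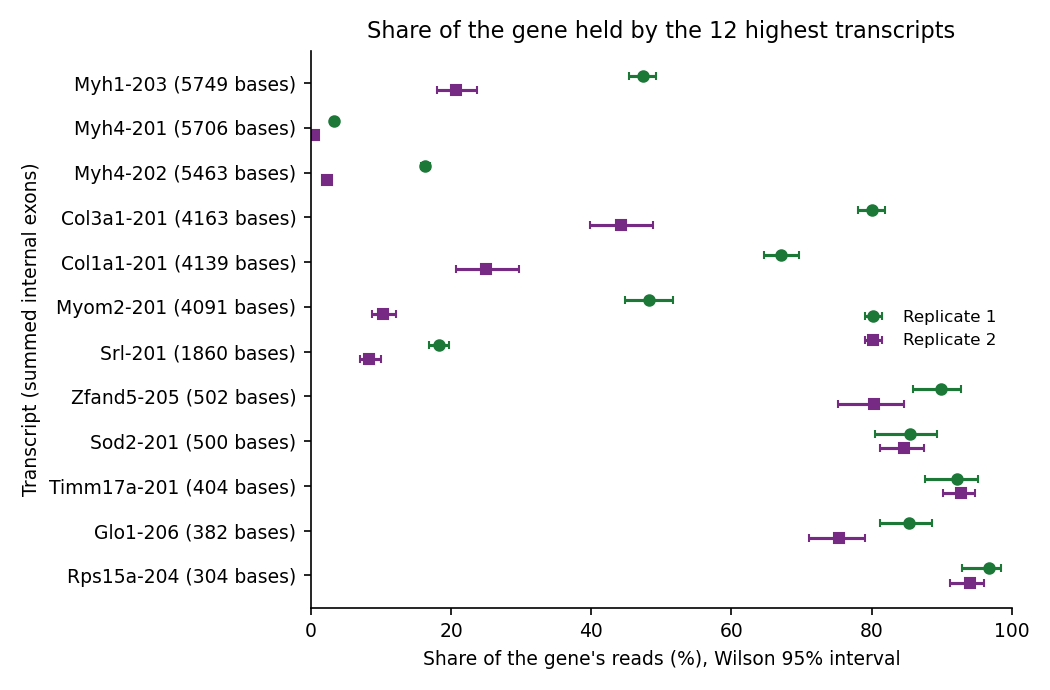
Points give the share of the gene's reads held by each of the 12 transcripts with the highest mean CPM, in percent with Wilson 95% intervals, for replicate 1 (circles) and replicate 2 (squares), ordered by summed internal exons. The share in replicate 1 lies above that in replicate 2, with intervals apart, for the 7 transcripts with 1860 or more internal bases and also for Glo1-206 and for Zfand5-205, and the intervals overlap for Sod2-201, Timm17a-201 and Rps15a-204.

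Excitation and calcium handling genes held 5.05% of long reads in replicate 1 and 2.32% in replicate 2. Their 11 transcripts of 9 genes had 1124 reads in replicate 1 and 248 in replicate 2, and all 5 tested were called higher in replicate 1 (4 of 5 with TMM or DESeq2 totals). Srl-201, of sarcalumenin, a calcium-binding protein of the sarcoplasmic reticulum lumen, stands exactly at the limit of 5000 bases and had 515 and 116 reads, a ratio of 5.89 (4.80 to 7.26). Cacna1s-204, of the pore of the T-tubule calcium channel that senses voltage, crossed 5227 internal bases in 278 reads of replicate 1 and 51 of replicate 2, and these were 46.9% of 593 and 8.47% of 602 reads of the gene. Abcc9-204, of the regulatory subunit of a potassium channel, had 18 and 3 reads.

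Collagens and other matrix genes had the largest median ratio of the lists. Their 31 transcripts of 28 genes had 2478 reads in replicate 1 and 343 in replicate 2, or 2391 and 250 CPM, and all 11 tested were called higher in replicate 1, at a log2 ratio of 3.35 at the median (10 of 11 with TMM or DESeq2 totals). Col3a1-201 (chr1:45311538-45349706, 51 exons) had 1245 reads in replicate 1 and 205 in replicate 2, and Col1a1-201 (chr11:94936224-94953042, 51 exons) had 909 and 87. Both belong to the fibrillar collagens of connective tissue, with internal sums of 4163 and 4139 bases. The basement membrane collagens Col4a1-201 and Col4a2-201 had 62 and 31 reads in replicate 1 and 7 and 3 in replicate 2. Laminin transcripts Lamb2-201 and Lamc1-201 had 43 and 25 reads in replicate 1 and 10 and 8 in replicate 2. Col5a2-201 and Col5a3-201, of chains of a minor fibrillar collagen, had 13 and 11 reads in replicate 1 and 0 in replicate 2, which makes them at least 5.74-fold and 4.86-fold higher in CPM in replicate 1 (floor of 3 counts in replicate 2). In all reads of their genes, the 5 fibroblast markers, all with reads, had a sum of 3560 CPM in replicate 1 and 936 CPM in replicate 2. Most of that sum was Col1a1 (1306 and 254 CPM) and Col3a1 (1500 and 337 CPM), whose long transcripts are counted above. Col1a2 had 385 and 143 CPM and Dcn 365 and 196, while Pdgfra went the other way with 3.86 and 5.09. Of those markers Col1a1 and Col3a1 are also in the matrix list, and the part of fibroblast content in the result was not tested. Fbn1-201, of the microfibril protein fibrillin, had 5 and 1 reads across 8418 internal bases.

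Genes of metabolism and of protein breakdown gave long transcripts as well. The metabolic list had 958 reads in replicate 1 and 490 in replicate 2, with 13 of 17 tested called higher in replicate 1 (7 with TMM totals and 6 with DESeq2 size factors). It was led by Slc25a12-206, of the mitochondrial aspartate and glutamate carrier, with 254 and 135 reads. Phka1-202, of the muscle phosphorylase kinase alpha subunit that drives glycogen breakdown, had 162 and 78. Among genes of ubiquitin and protein breakdown, 7 of 10 tested were called higher in replicate 1 (5 with either other scaling). Their leader Usp13-201, of a deubiquitinase, had 150 and 62 reads, and Fbxo40-201, of a muscle ubiquitin ligase subunit, had 79 and 28. Fbxo32-201, of the atrophy ligase subunit atrogin-1, had 28 and 21, a log2 ratio of 0.81 that was not called (adjusted p = 0.129, exact binomial test).

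Genes of RNA handling and of regulation gave many long transcripts with few reads each. The RNA and translation list had 63 transcripts with 701 reads in replicate 1 and 309 in replicate 2, led by Eif4g2-213, of a translation initiation factor, with 264 and 96. In that list 7 of 14 tested were called higher in replicate 1 (6 with TMM totals and 5 with DESeq2 size factors). The signalling list had 64 transcripts with 312 and 108 reads and 7 of 11 called (5 with TMM or DESeq2 totals). It was led by Prkaa2-201, of the AMP-activated kinase subunit alpha 2, with 27 and 10. The trafficking list had 57 transcripts with 258 and 83 reads and 4 of 9 called, led by the kinesin transcript Kif5b-201 with 44 and 18. The transcription and chromatin list had 64 transcripts with 254 and 81 reads and 6 of 9 called (2 with TMM or DESeq2 totals). Its leader Nfib-202, of a nuclear factor I protein, had 26 and 18 reads and was not called (adjusted p = 0.0830, exact binomial test), while Zfp106-201, of an RNA-binding zinc finger protein, had 32 and 1. Foxo1-201, of the forkhead factor, had 17 and 6. Nerve, vessel and immune genes had 54 and 18 reads in 17 transcripts, 28 and 7 of them in Epas1-201, of a hypoxia-inducible factor, the only transcript of the list that was tested. The 11 lists together hold 416 of the 1480 transcripts.

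The remaining 1064 transcripts, in none of the lists, had 10037 reads in replicate 1 and 7609 in replicate 2. Of 290 tested, 116 were called higher in replicate 1, against the background of 21.4% of all annotated transcripts. Their internal exons were short, with a median of 1514 bases. The highest ones named here had a long last exon behind a short chain. Sod2-201, of the mitochondrial superoxide dismutase, had 211 reads in replicate 1 and 444 in replicate 2. Timm17a-201, of the mitochondrial inner membrane import channel, had 188 and 439, and Rps15a-204, of a small ribosomal subunit protein, had 175 and 351. Each of these was lower in replicate 1 (log2 ratios -0.66, -0.81 and -0.60; adjusted p of 2.57e-07, 4.54e-10 and 4.95e-05 by the exact binomial test), but by less than the 2-fold that a call needs. With TMM totals their log2 ratios were -1.12, -1.27 and -1.05 and all passed. Glo1-206, of glyoxalase, spans 9865 bases in the annotation and 382 in its internal exons, and had 296 and 329 reads, with a log2 ratio of 0.25 that turned to -0.20 with TMM totals. Zfand5-205, of a zinc finger protein that binds ubiquitin, had 275 and 221. Dnajc15-202, of a mitochondrial co-chaperone, was the call toward replicate 2, with 62 and 175 reads and 274 internal bases (ratio 0.470, exact interval 0.346 to 0.631). At the other end Scd2-201, of a fatty acid desaturase, had 15 reads in replicate 1 and 0 in replicate 2, at least 6.63-fold higher in CPM in replicate 1. Its chain is short as well, with 853 internal bases, and its whole gene had 22 reads in replicate 1 and 2 in replicate 2.

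The annotated length alone picked out other transcripts than the internal exons did. The 5 longest with reads in both libraries were D10Wsu102e-201 (123179 bases, 224 of them in internal exons) with 2 reads in replicate 1 and 1 in replicate 2, Hnrnpr-207 (21452 bases) with 3 and 1, and Ahnak-202 (18100 bases) with 2 and 1. Serbp1-201 (15474 bases) had 26 and 34, and the BC004004 transcript of 13859 bases had 1 and 6. In Ahnak-202 a single last exon of 17498 bases holds nearly all of the 16968 coding bases of a giant membrane-associated protein, and the internal exons hold 2.03% of them. In Hnrnpr-207 and Serbp1-201, of RNA-binding proteins, the 3′ untranslated region takes 19422 and 13780 bases. Of 72 transcripts of 10000 bases or more, 53 had under 3000 internal bases and 9 had 5000 or more.

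By internal exons the 5 longest chains with reads in both libraries were Fbn1-201 (8418 bases, 66 exons), Myo18b-201 (7951), Gcn1l1-201 (7872), Flnc-202 (7539) and Fasn-201 (7386). Gcn1l1-201, of a translation regulator, had 2 reads in replicate 1 and 1 in replicate 2. Flnc-202, of the muscle filamin that links the Z-disc and the membrane, had 5 and 1, and Fasn-201, of fatty acid synthase, had 1 and 1. The chain of Cmya5-201, of myospryn, was longer than all of these at 10635 bases, the maximum of the 1480, and had 9 reads in replicate 1 and 0 in replicate 2. Ranbp2-201, of a nuclear pore protein, followed with 8784 bases in 2 reads of replicate 1 alone. These chains hold 93.3% to 100% of the coding sequence in Fbn1-201, Myo18b-201, Gcn1l1-201, Flnc-202 and Fasn-201, so each such read carried nearly the whole coding region.

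The share of a gene that its long transcripts hold was highest where the internal exons were short. Over genes with at least 20 reads in a library, the median share was 40.7% in replicate 1 (419 genes) and 13.0% in replicate 2 (384 genes), with a mean of 26.8% ± 19.7 (SD, n = 2). Genes whose leading long transcript had under 1000 internal bases had medians of 61.0% in replicate 1 and 39.1% in replicate 2. At 4000 internal bases or more the medians were 15.1% and 2.28%, and the median share of incomplete matches was 49.8% and 57.4%. Pooled over all 1358 genes, the long transcripts held 37.7% and 17.0% of reads, incomplete matches 28.8% and 46.7%, and genomic models 9.92% and 25.3%. Col3a1-201 held 80.1% of the reads of its gene in replicate 1 and 44.3% in replicate 2, and Myom2-201 held 48.2% and 10.3%. Myh4-202 held 16.3% of 14581 reads and 2.36% of 22718 reads. Incomplete matches took 52.2% and 87.0% of Myh4 and Myh4-201 took 3.25% and 0.484%, and the rest lay in other models. Rps15a-204, in contrast, held 96.7% and 94.1%, Timm17a-201 92.2% and 92.8%, and Sod2-201 85.4% and 84.6%.

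The share of a gene's reads in all annotated spliced transcripts was tested per gene with a two-sided Fisher exact test, adjusted over the 1834 genes that reached 50 reads in both. Of 128 such genes with a long read in either library, 59 (46.1%) had a share at least 10 percentage points higher in replicate 1 at an adjusted p under 0.05, against a background of 28.3%. In the other direction 0 of the 128 passed, against a background of 0.109%, and 74 of the 128 (57.8%) had an unadjusted p under 0.05, against 736 of all 1834 genes (40.1%). The 128 were picked by a long read, and such reads count in the tested share. Genes with long annotated transcripts but no long read are in the background only. The excess over the background is thus partly built in by the choice of genes, and no conclusion is drawn from it. The largest difference among these 128 was in the slow myosin gene Myh7, with 71.8% in replicate 1 and 25.8% in replicate 2. Fbxo40 followed with 69.5% and 24.8%, the monocarboxylate transporter gene Slc16a10 with 54.7% and 11.6%, Col1a1 with 67.1% and 24.9%, and Cacna1s with 46.9% and 8.47%. In Fbxo40 the other reads were mostly genomic models, 30 in replicate 1 and 95 in replicate 2, whereas in Cacna1s they were incomplete matches, 294 and 546. Without genomic models 27 of 90 genes passed (30%), against 254 of all 1644 genes tested that way (15.5%). Over all genes, the median annotated spliced share fell with the longest annotated transcript that had a read: it was 87.1% in replicate 1 and 79.4% in replicate 2 from 1000 to under 2000 bases, 82.4% and 68.8% from there to 3000, and 56.0% and 25.9% at 5000 or more.

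Whether molecules with the last junction also reach the annotated 3′ end was read from models outside the annotated class, which carry coordinates in the deposited annotation. How the authors set those ends, and whether any were moved onto annotated ends, was not tested, and the end positions below are those of the models and not of single reads. For 341 long transcripts, at least 3 such spliced models in each library used the same last acceptor. Transcripts of a gene that share this acceptor draw on the same models, as those of Phka1 do, so the 341 are not all separate sets of models. Among the 190 of them built of internal exons, the median model end lay at 100% of the annotated last exon in both libraries. Among the 129 with a dominant last exon, it lay at 20.98% in replicate 1 and 18.04% in replicate 2, 1013 and 796 bases into last exons of 4368 bases at the median, and for 100 and 106 of them the median model stopped before 50% of the last exon. Shorter annotated spliced transcripts with a dominant last exon reached 99.9% and 99.6% at the median (963 transcripts). Their last exons were 1539 bases at the median, with model ends 1102 bases in for replicate 1 and 978 for replicate 2. In bases, the ends thus lay about as far in as those of the long set, and the sets differ mainly in the annotated last exon. In Cacna1s the models ended 573 bases into a last exon of 574 bases in both libraries, in Myom2 at 897 of 897 and in Flnc at 862 of 862. In Sod2, Zfand5 and Pnpla8 they ended at 591 of 5109, 1868 of 6418 and 1019 of 11208 bases in both libraries. Collagens were built of internal exons, yet models of Col1a1 ended at 375 of 1570 bases in both libraries, and those of Col3a1 at 417 in replicate 1 and 414 in replicate 2, of 1106.

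**Figure D4:**
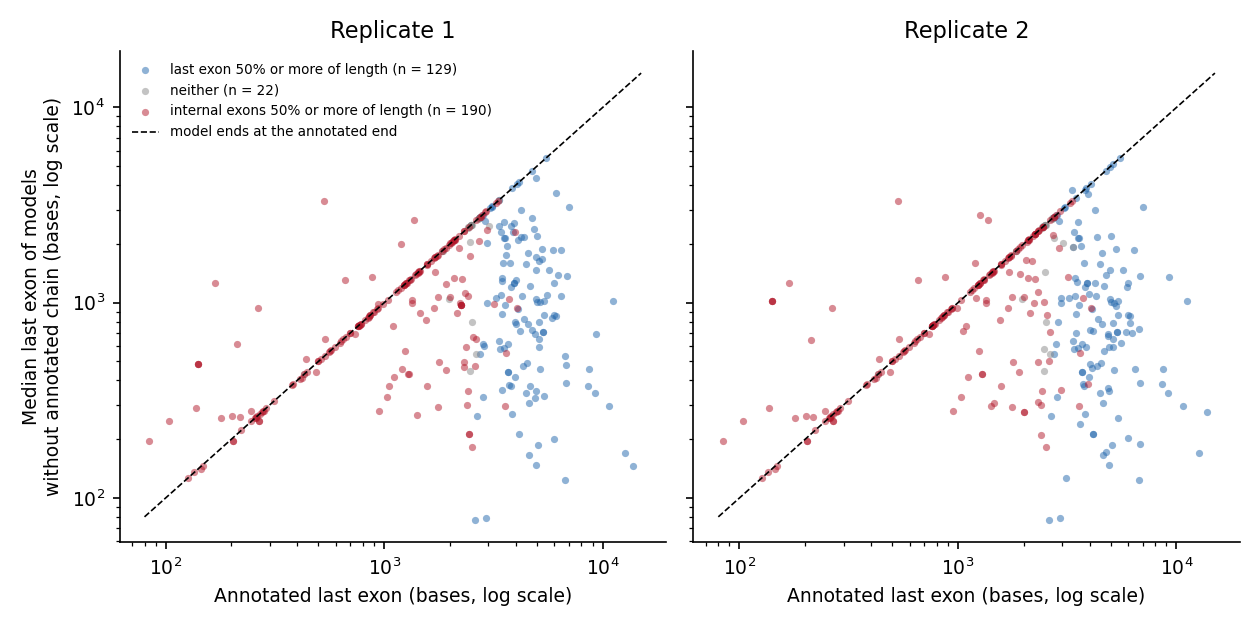
For 341 long transcripts, the median last exon of models without an annotated chain (up, bases, log scale) is set against the annotated last exon (across, bases, log scale) in replicate 1 (left) and replicate 2 (right), coloured by longest part. Transcripts built of internal exons lie mostly on the dashed line of equality, and those with a dominant last exon lie mostly under it, at medians of 20.98% and 18.04%.

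The windows shown near the start come from these ends. For 91 transcripts with a dominant last exon, the median ends of the 2 libraries lay within 25 bases of each other, at 18.9% of the last exon. Here too some transcripts of a gene, such as those of Camk2d, draw on the same models and are counted separately. A search of the transcript strand for AATAAA or ATTAAA found either hexamer in the 40 bases before 59 of the 91 model ends (64.8%), and before 68 of the 91 annotated ends (74.7%). The same search met 503 of 10637 windows of 40 bases in the same last exons (4.73%). At 12 of the model ends (13.2%) at least 12 of the next 20 bases were A, against 1.78% of the windows, and Usp13-201 above is of this sort. Of the 81 ends that lay before 90% of the last exon, 50 had a hexamer, 10 had no hexamer but the run of A, and 56 (69.1%) fell on the annotated end of another transcript of the gene. A model end moved onto an annotated end would count in these shares, and this was not tested. A hexamer match is a description of these letters and not a mapped cleavage site.

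Many expressed genes with long annotated transcripts had no read in any of them. Among 934 genes with such a transcript and at least 20 reads in sum, 652 (69.8%; Wilson 95% interval 66.8 to 72.7) had a long read. Genes were grouped by the internal exons of the annotated transcript that needs the fewest. The share was 75.4% under 1000 bases, 78.7% from there to 2000, 72.8% to 3000, 61.4% to 4000, 58.5% to 6000 and 61.1% to 8000 (interval 44.9 to 75.2). It was thus higher in each bin under 3000 bases than in each from 3000 to 8000. Neighbouring intervals overlap up to there, but that of 1000 to 2000 (72.7 to 83.8) lies above those of 3000 to 4000 (52.2 to 69.8) and 4000 to 6000 (49.9 to 66.6). The bins were not tested against each other. At 8000 bases or more it was 11.1%, 2 of 18 genes (3.10 to 32.8), which were Cmya5 and Fbn1. The other genes of that bin include Neb, Dmd, Speg, Dync1h1, Hspg2 and Lrp1, with 406, 23, 218, 40, 29 and 42 reads in sum. With at least 50 reads in sum, 109 of 450 genes had no long read. The 6 with the most reads were Xirp2 (343 reads in replicate 1 and 1278 in replicate 2), the calcium release channel gene Ryr1 (752 and 644), the myomegalin gene Pde4dip (700 and 421), the endophilin gene Sh3glb1 (256 and 519), the Z-disc gene Ldb3 (233 and 522) and the titin gene Ttn (263 and 435).

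These 6 genes differ in which models held their reads, and the length of those reads was not analysed here. In Xirp2, an actin-binding repeat protein gene, 334 of 343 and 1264 of 1278 reads were incomplete matches, and in Ryr1 they were 705 of 752 and 614 of 644. The chains those genes need are 9967 and 14955 bases long. Ttn needs 9816 at the least and had 131 and 140 incomplete matches beside 78 and 249 genomic reads. Sh3glb1 and Ldb3 need only 981 and 2108 bases. In Sh3glb1 the annotated spliced reads, 205 and 196, were all in shorter transcripts, and in Ldb3 most reads of replicate 2 (450 of 522) were genomic, against 63 of 233 in replicate 1. Pde4dip had 149 and 51 reads in new combinations of annotated splice sites and 138 and 31 with a new junction.

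**Figure D5:**
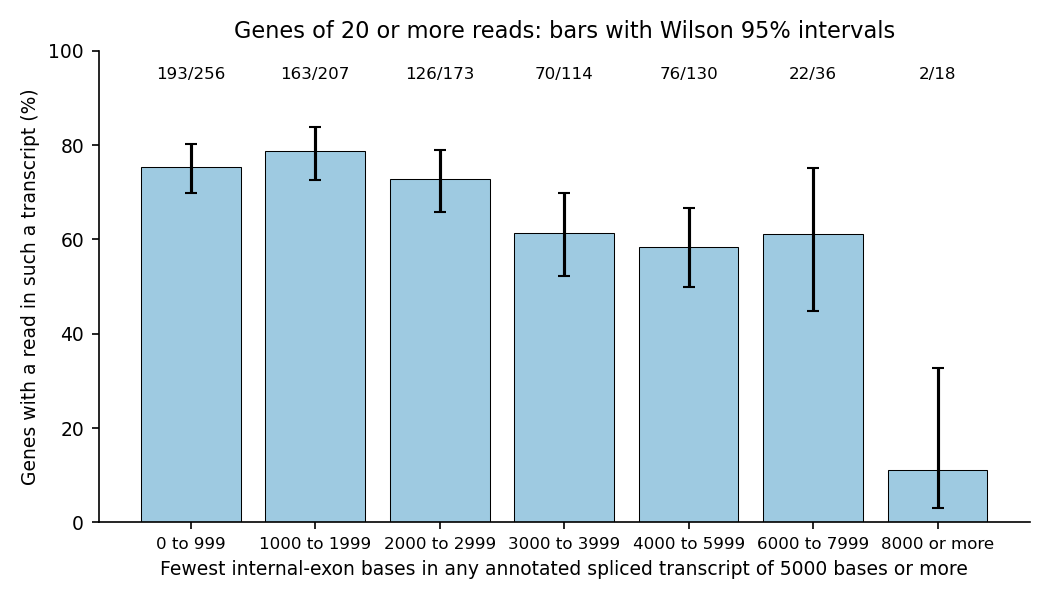
Bars give the percent of genes with 20 or more reads in sum that have a read in an annotated spliced transcript of 5000 bases or more, by the fewest internal-exon bases such a transcript of the gene needs, with Wilson 95% intervals and gene counts. The bars lie between 58.5% and 78.7% below 8000 bases and at 11.1% (2 of 18 genes) beyond.

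At the limit of 5000 bases the nearest members were Fbxw8-201 with 20 reads in replicate 1 and 13 in replicate 2, Mrpl19-201 with 9 and 18, and Srl-201. Just outside it stood Tom1l2-206 at 4999 bases with 8 and 5 reads, and Arid4a-201 and Mon1b-201 at 4998 bases with 1 and 0 and with 0 and 3. In 106 genes more than 1 long transcript had a read, up to the 5 of Son, a splicing cofactor gene, which had 6 reads in replicate 1 and 1 in replicate 2. The chain of 119 long transcripts (8.04%) lies whole inside a longer annotated chain, as that of Myh4-202 does, and these held 16.4% of long reads in replicate 1 and 13.0% in replicate 2. For them the call cannot tell a complete molecule from a part copy of the longer chain.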

How the data were processed

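The deposited tables give raw read counts per transcript model for 2 libraries, with the annotated length and exon number of each model. Per the file headers, reads were placed on assembly mm10 and annotated with GENCODE M21, and unannotated models carry TALON as their source. No aligner or TALON version is given in the sources used here. The authors' model coordinates (deposited annotation files, 1-based) were used for the ends of unannotated models, and their exons matched the tables for all 41419 and 43428 models compared. The deposited length equalled that of GENCODE for all long annotated transcripts, and the exon numbers given here for them are those of GENCODE.

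CPM were counts per 1000000 reads in annotated genes. With 1 library on each side no dispersion could be fitted, so edgeR's quasi-likelihood test was not run. Annotated transcripts with at least 10 reads in sum were compared by a conditional binomial test (exact, two-sided), with Benjamini-Hochberg adjustment over all of them and a call at an adjusted p under 0.05 and 2-fold, 0.5 reads added. Gene shares were compared with Fisher's exact test. Both tests were first run on simulated data. Alternatives used totals from edgeR 4.0.16 (TMM) and DESeq2 1.42.0 in R 4.3.3, other minimum counts, length limits and libraries left out; scipy 1.17.1 and Python 3.11.15 ran the tests. Wilson intervals have a level of 95%.

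Named transcripts were the 12 highest by mean CPM, the 5 longest and the 5 with the most internal-exon bases among those in both libraries, up to 3 called transcripts with the largest ratio in each direction (only 1 was called toward replicate 2), the leader of each list, and the 6 most read genes without a long read. Other names were chosen after their values were seen, as were the analysis of model ends and its settings. The members and lists were chosen with earlier results of these data known. The labels number the animals separately but give both the same donor entry, so independent donors are not established. For that reason p-values measure only the spread of counting between these libraries. Some items are not reported here.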

Additional observations from a re-analysis of the deposited data

How the results depend on the processing

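No paired analysis was possible because the labels give 1 group. The number of long transcripts with a read was 1480. It was 2956 at a limit of 4000 bases, 804 at 6000 bases and 760 with at least 3 reads in a library, and 911 without replicate 1 to 1356 without replicate 2. Their share of gene reads, 1.46%, was 2.99% at a limit of 4000 bases and 0.705% at 6000 bases, and 0.778% without replicate 1 to 2.15% without replicate 2. The 194 transcripts called higher in replicate 1 became 114 with edgeR TMM totals and 107 with DESeq2 size factors, and lay between 138 and 194 under the other 4 settings. The 138 were of 247 tested at a minimum of 20 reads in sum (55.9%, against 24.2% of all annotated transcripts). With no minimum, 167 of 1480 were called (11.3%, against 6.67%). Glo1-206 turned to log2 ratios of -0.20 and -0.25 with TMM and DESeq2 totals, and Serbp1-201 (0.03) to -0.43, -0.47 and, with annotated spliced totals, -0.047. With TMM and DESeq2 totals Slc25a12-206 was no longer called, at 0.86 and 0.82. Of 147 values of 25 named transcripts under 6 settings, 134 kept direction and call. Genes picked by a long read that had a higher annotated spliced share in replicate 1 were 59. They were 90 of 327 (27.5%) at a minimum of 20 reads, against 19.2% of all genes, and 27 of 90 (30%) without genomic models, against 15.5%. Genes without a long read were 109; they were 282 of 934 with at least 20 reads in sum, and 49 without replicate 2 to 83 without replicate 1. The median internal-exon sum of 1965 bases was 1552 for transcripts in both libraries, and 1559 without replicate 1 to 1976.5 without replicate 2. With 2 libraries, leaving out 1 gives the value of the other. The share of the gene, 26.8%, was then 13.0% without replicate 1 to 40.7% without replicate 2, that of annotated spliced reads at 5000 bases or more, 40.9%, was 25.9% to 56.0%, and the myosin list, 2562 CPM, was 660 to 4464 CPM. The hexamer share of 64.8% was 64.0% to 65.2% under 3 settings chosen after seeing the data.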
